A study of Mus musculus with 6 samples.

Results

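The 10 genes described here are members of the hypoxia pathway, read in neuro2a (N2a) cells, a mouse neuroblastoma line, after knockdown of the transcription factor NF-Y. They comprise the oxygen-regulated factor subunits Hif1a and Epas1, the prolyl hydroxylases Egln1 and Egln3, and the hypoxia-responsive genes Vegfa, Bnip3, Ankrd37, Ddit4, Car9 and Ndrg1. They were chosen by name, with earlier results of these data known. Every array probe whose RefSeq accession mapped to any of them was taken, giving 16 of the 55681 probes. Of these, 14 passed a filter on dim probes, so that all 10 genes were tested, among 16490 genes in all. The 3 control samples, labelled as vector knockdown, were N2a cells transfected with a control RNAi vector. The study's methods name an empty and a non-targeting vector as controls, and the label was read as the empty one. The 3 knockdown samples were N2a cells transfected with miR RNAi vectors that target NF-YA together with NF-YC. Both proteins belong to NF-Y, a trimeric factor that binds CCAAT motifs. All 6 samples were thus transfected cells of the same line, and the labels give no hypoxia treatment for either group. If the control vector was empty, no non-targeting control was compared. No sorting of transfected cells was described, and the labels did not state whether the samples of a group were separate cultures. The p-values thus measure only the spread between these samples, which may be technical. The comparison asked whether a general hypoxia programme moved when NF-Y was lowered.

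Hypoxia-inducible factors (HIFs) are pairs of an oxygen-labile alpha subunit, such as HIF-1 alpha (Hif1a) or HIF-2 alpha (Epas1), and the stable partner ARNT. In the presence of oxygen, prolyl hydroxylases of the EGLN family mark the alpha subunit for recognition by VHL and for degradation, so that HIF activity is set largely at the level of protein stability, which a transcript array does not read. When oxygen is low, HIF binds short core sequences near its targets and induces genes for glycolysis, angiogenesis, mitophagy and pH control, and Egln3 is itself a target that feeds back on the pathway. In neuroblastoma, HIF-2 alpha has been studied for its link to an immature, neural crest-like state.

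Agilent SurePrint G3 mouse arrays of the single-colour type were used, and between 61.9% and 66.2% of the spots were well above background on each array. Values are the log2 signal minus the 75th percentile of the array, called normalized signal below, and are comparable between arrays for the same probe but not between probes. All 14 markers of neuroblastoma and sympathetic neurons were well above background on all 6 arrays. Their summed intensity was 316675 to 334205 on the control arrays and 280970 to 303151 on the knockdown arrays, and 2 of the 14 were called lower, Mycn (-0.69, adjusted p = 0.00488) and Th (-0.62, adjusted p = 0.00154). Of the targeted genes, Nfya fell by 0.76 on the log2 scale and Nfyc fell by 1.81 (limma, Benjamini-Hochberg adjusted p = 0.00128 and 0.000323), whereas Nfyb, the subunit that was not targeted, was higher by 0.83. The 6 arrays lay on 1 slide, with the 3 controls and knockdown 1 in its first row and knockdown 2 and 3 in its second row.

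Promoter windows were taken from RefSeq, build GRCm38.p6, and covered 250 bases before to 50 bases after each annotated start. A window was found for 8 of the 10 genes, with 2 windows for Vegfa, and the genes without an entry were Epas1 and Ndrg1. The windows below belong to the genes with an entry that were called lower in the knockdown (Ankrd37, Bnip3 and Egln3) and to Car9, whose signal was at background in the knockdown. They are printed 5′ to 3′ on the strand of the gene, and capitals mark every match to the NF-Y letters CCAAT or their reverse complement ATTGG, and to the HIF core letters ACGTG or GCGTG or their reverse complements CACGT and CACGC.
Ankrd37, chr8:45999801-46000100, minus strand: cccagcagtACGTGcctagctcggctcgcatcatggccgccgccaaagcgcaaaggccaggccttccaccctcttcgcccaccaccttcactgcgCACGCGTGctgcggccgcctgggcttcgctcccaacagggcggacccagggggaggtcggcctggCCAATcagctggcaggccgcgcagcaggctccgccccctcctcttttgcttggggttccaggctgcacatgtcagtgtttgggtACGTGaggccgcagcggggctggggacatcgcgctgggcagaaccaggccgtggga
Bnip3, chr7:138909457-138909756, minus strand: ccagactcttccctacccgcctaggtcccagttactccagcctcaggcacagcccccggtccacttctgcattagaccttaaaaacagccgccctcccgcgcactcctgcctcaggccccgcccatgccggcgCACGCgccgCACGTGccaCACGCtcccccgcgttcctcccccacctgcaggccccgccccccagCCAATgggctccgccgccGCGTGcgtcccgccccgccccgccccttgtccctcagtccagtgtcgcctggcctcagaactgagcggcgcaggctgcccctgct
Egln3, chr12:54203825-54204124, minus strand: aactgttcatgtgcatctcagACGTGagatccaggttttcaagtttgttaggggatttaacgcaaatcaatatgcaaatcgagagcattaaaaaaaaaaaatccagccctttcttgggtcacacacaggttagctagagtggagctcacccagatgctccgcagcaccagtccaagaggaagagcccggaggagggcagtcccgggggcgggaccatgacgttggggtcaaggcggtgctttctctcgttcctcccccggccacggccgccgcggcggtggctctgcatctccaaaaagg
Car9, chr4:43506776-43507075, plus strand: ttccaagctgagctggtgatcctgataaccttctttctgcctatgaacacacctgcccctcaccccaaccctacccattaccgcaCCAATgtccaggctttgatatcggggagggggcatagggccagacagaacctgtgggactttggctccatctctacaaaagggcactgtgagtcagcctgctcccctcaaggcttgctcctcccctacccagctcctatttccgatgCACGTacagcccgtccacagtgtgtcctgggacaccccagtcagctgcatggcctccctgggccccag
The Ankrd37, Bnip3 and Car9 windows each held 1 CCAAT match, beginning at positions -90, -53 and -165 from the start site, and the Egln3 window held none. The HIF core matches numbered 4 in Ankrd37, 5 in Bnip3, 1 in Egln3 and 1 in Car9. Matches may overlap, and the palindrome CACGTG in Bnip3 counts on both strands. Over the 9 windows of the 8 genes, 7 held a CCAAT match and 8 held a HIF core match, and the windows of Hif1a, Ddit4 and Vegfa held CCAAT letters without these genes being called. Among all 32851 mouse windows of the same length, 37.4% held a CCAAT match and 43.8% a HIF core match. These letters are a description of the sequence and not of binding.

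The transcripts of the HIF alpha subunits themselves were not called as changed. Hif1a, the broadly expressed alpha subunit, had a normalized signal of 1.55, 1.54 and 1.68 on the control arrays and 1.49, 1.46 and 1.56 on the knockdown arrays. The groups overlapped, and the change was -0.08 on the log2 scale (SE 0.060, 95% interval -0.24 to 0.07, adjusted p = 0.384). Epas1, the alpha subunit of HIF-2, read 2.56, 2.56 and 2.41 in control cells and 2.33, 2.40 and 2.35 in knockdown cells. Every knockdown array lay below every control array, with a change of -0.15 (SE 0.059, 95% interval -0.30 to 0.003) that did not pass the test (adjusted p = 0.144). The other Epas1 probes, A_55_P2053988 and A_51_P250058, stayed near background on all 6 arrays and were not tested. The changes of Hif1a and Epas1 differed by 0.06, which was less than the spread between arrays (exact permutation test over the 20 assignments of arrays, two-sided p = 0.6, n = 3 per group).

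**Figure D1:**
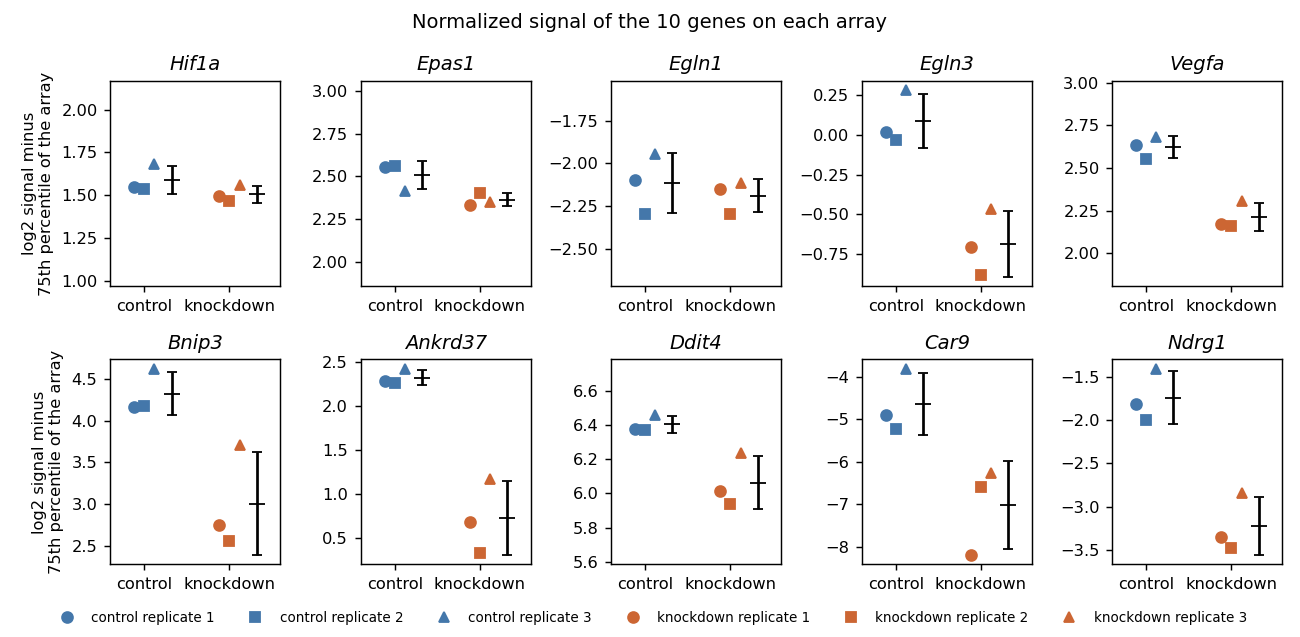
Each panel plots the normalized signal (log2 signal minus the 75th percentile of the array) of 1 gene on the 3 control arrays (blue) and the 3 knockdown arrays (orange); marker shapes give the replicate number, and bars at the right of each group give the mean ± SD (n = 3). Panels have their own vertical ranges, so levels are not to be compared between genes. The groups overlap for Hif1a and Egln1 and are apart for the other 8 genes.

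Of the prolyl hydroxylases, which initiate the degradation of HIF alpha subunits, Egln3 was called lower and Egln1 was not called. Egln1, the main oxygen sensor of the family, read -2.10, -2.30 and -1.95 in control cells and -2.15, -2.30 and -2.12 in knockdown cells. These values overlapped, and the change was -0.08 (SE 0.108, 95% interval -0.35 to 0.20, adjusted p = 0.667); it turned to 0.0084 without control 3. Egln3, the hypoxia-inducible hydroxylase, read 0.016, -0.034 and 0.28 in control cells and -0.71, -0.88 and -0.47 in knockdown cells. It fell by 0.78 on the log2 scale, to 58.4% of the control (SE 0.141, adjusted p = 0.0172), with no overlap between the groups. In this bulk RNA, as for all values here, fewer cells expressing a gene and less RNA per cell cannot be told apart. The gap between the changes of Egln1 and Egln3 was 0.70, at an exact two-sided permutation p = 0.1, which is the smallest that 3 arrays against 3 allow (0.2 after Benjamini-Hochberg adjustment over the 2 pairs compared).

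A second Egln3 probe, A_55_P1960916, gave a different picture. It read -0.86, -0.90 and -0.76 in control cells and -1.59, -1.71 and -0.09 in knockdown cells, so that knockdown 1 and 2 were below the controls while knockdown 3 was above them. Its change of -0.29 did not pass the test (SE 0.460, adjusted p = 0.694). With the mean over both probes, the Egln3 change was -0.53 and the call was lost (adjusted p = 0.197). The call was also lost without control 1 (adjusted p = 0.0534) or without knockdown 1 (adjusted p = 0.0593).

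The largest change that was called belonged to Ankrd37, a small ankyrin repeat protein that is strongly induced by hypoxia. Its normalized signal was 2.27, 2.26 and 2.42 on the control arrays and 0.68, 0.33 and 1.16 on the knockdown arrays. It fell by 1.59 on the log2 scale, to 33.1% of the control (SE 0.220, adjusted p = 0.00744). Ndrg1, a stress-responsive gene that was first linked to differentiation and is induced by hypoxia, read -1.81, -2.00 and -1.41 in control cells and -3.34, -3.48 and -2.84 in knockdown cells. It fell by 1.48, to 35.9% of the control (SE 0.231, adjusted p = 0.0110). For both genes the knockdown arrays were all below the control arrays, by a gap wider than the range within either group.

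Bnip3, a mitochondrial receptor that drives mitophagy under hypoxia, read 4.17, 4.18 and 4.62 in control cells and 2.74, 2.56 and 3.71 in knockdown cells. Knockdown 3 was close to the controls, and knockdown 1 and 2 were further away. Bnip3 fell by 1.32 on the log2 scale, to 40.0% of the control (SE 0.341, adjusted p = 0.0482), just inside the threshold. Its other probes gave changes of nearly the same size, -1.33 for A_55_P2091472 and -1.30 for A_66_P120736, with adjusted p of 0.0549 and 0.0697. The call was lost without any single array other than knockdown 3, at adjusted p between 0.109 and 0.128, while without knockdown 3 the change was -1.67 and the call held. Over the 20 alternative settings it was lost in 10, and the change stayed between -1.67 and -1.10.

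Car9, the membrane carbonic anhydrase that acidifies the outside of hypoxic cells, was a dim transcript whose signal was at background in the knockdown. Its probe stood well above background in 3 of 3 control samples, at -4.89, -5.22 and -3.81, and in 0 of 3 knockdown samples, where its readings were -8.19, -6.60 and -6.26. The knockdown readings are only a bound. As the floor on each array, the lowest signal well above background was taken, or the probe's own signal if higher. Against this floor, the control mean was 2.71-fold higher. That figure is a bound for the group means only and leaves out the spread between arrays. By limma, the 95% interval of the change in the readings was -4.01 to -0.75 on the log2 scale. After normexp with its offset of 50 and the 75th percentile, the change was -0.30. The fit, which takes the readings as they are (means -4.64 and -7.02), gave adjusted p = 0.0546, so that Car9 was not called, and its knockdown SD of 1.03 was wider than that of 98.2% of all genes tested. It was called under 6 of the 19 alternatives that gave it a value.

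Vegfa and Ddit4, by contrast, changed by less than the minimum fold of 1.5 asked of a call. Vegfa, the main angiogenic growth factor, read 2.64, 2.55 and 2.68 in control cells and 2.17, 2.16 and 2.31 in knockdown cells by probe A_52_P638895. This change of -0.41 passed on the adjusted p alone (SE 0.065, adjusted p = 0.0112) at a fold of 1.33. A second Vegfa probe, A_52_P249424, annotated to another transcript variant, had a change of -0.11 (95% interval -0.23 to 0.02, adjusted p = 0.187), although its knockdown arrays also lay below its control arrays. Ddit4, an inhibitor of mTORC1 that responds to hypoxia and to other stresses, read 6.38, 6.37 and 6.46 in control cells and 6.02, 5.94 and 6.24 in knockdown cells. The groups did not overlap, and the change was -0.34 (SE 0.091, 95% interval -0.57 to -0.11, adjusted p = 0.0525).

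**Figure D2:**
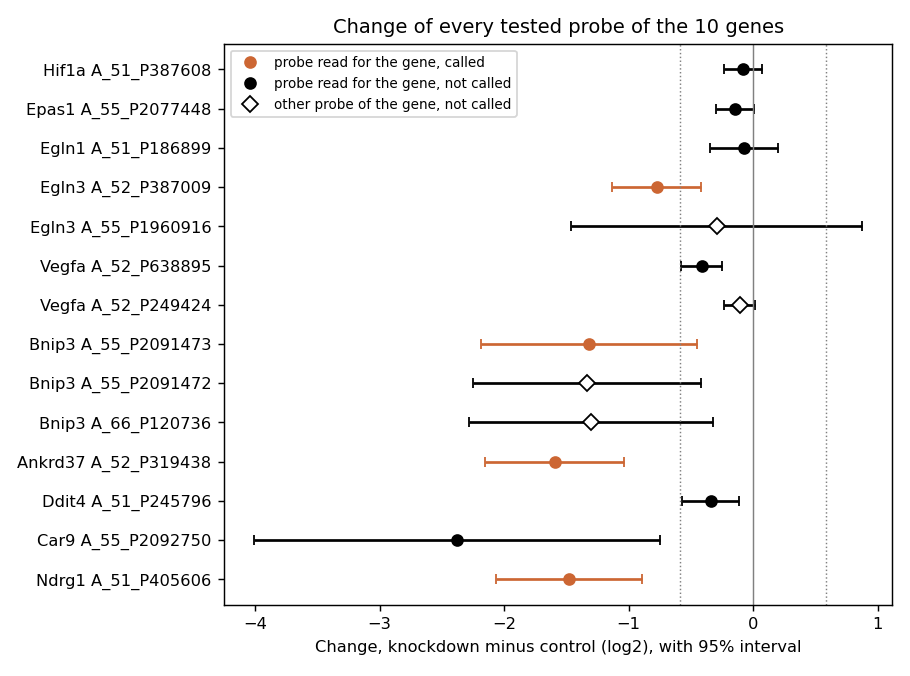
The horizontal axis gives the log2 change, knockdown minus control, with its 95% interval from limma, for each of the 14 tested probes of the 10 genes (3 arrays per group); filled circles are the probes read for the gene, open diamonds its other probes, orange marks a call, and dotted lines mark a fold of 1.5. All points lie below 0, from -0.08 for Hif1a and Egln1 to -2.38 for Car9, whose knockdown signal was not well above background.

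Taking the 10 genes as a set, 4 were called lower (Ankrd37, Ndrg1, Bnip3 and Egln3) and 0 higher by limma, where a call needed an adjusted p below 0.05 and a fold above 1.5. At an adjusted p below 0.05 with no minimum fold, 5 were lower and 0 higher. Among all genes tested, 5.00% were called lower and 3.91% higher, and by the adjusted p alone 15.8% were lower and 15.7% higher. In 8 of the 10 genes every knockdown array was below every control array, which held for 27.1% of all genes. The median change of the 10 was -0.59, against 0.005 over all genes. Of all calls, 56.1% were lower; this share was 75.5% when arrays were scaled on their median, which moved the median of all genes by -0.12, and 67.7% after normexp background correction with the 75th percentile. The calls were also sensitive to the slide row. Knockdown 1 was the only knockdown array in the row of the controls, and with the row as a block, which amounts to comparing knockdown 1 with the 3 controls, the changes of Ankrd37 (-1.64), Ndrg1 (-1.60), Bnip3 (-1.58) and Egln3 (-0.80) were larger but none passed (adjusted p = 0.0682, 0.0745, 0.146 and 0.113), and 1 gene, Car9, passed (adjusted p = 0.0464). That fit has 1 knockdown array to set against the controls, assumes that it varies like the others, and for Car9 rests on a reading that was not well above background, so no size is given for it.

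The genes also varied together within groups, a pattern looked for after the values were seen. Control 3 was the highest control array for 9 of the 10 genes, and knockdown 3 the highest knockdown array for the same 9, all but Epas1. Over all genes tested, 33.3% were highest on control 3, 25% were highest on knockdown 3, and 1666 of the 16490 were highest on both. Knockdown 2 was the lowest knockdown array for 8 of the 10 genes, against 41.1% of all genes. The knockdown SD was 1.03 for Car9, 0.62 for Bnip3, 0.42 for Ankrd37, 0.34 for Ndrg1, 0.21 for Egln3 and 0.16 for Ddit4. It was 0.096 for Egln1, 0.084 for Vegfa, 0.050 for Hif1a and 0.038 for Epas1, against a median of 0.065 over all genes. What differed between those samples was not tested.

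**Figure D3:**
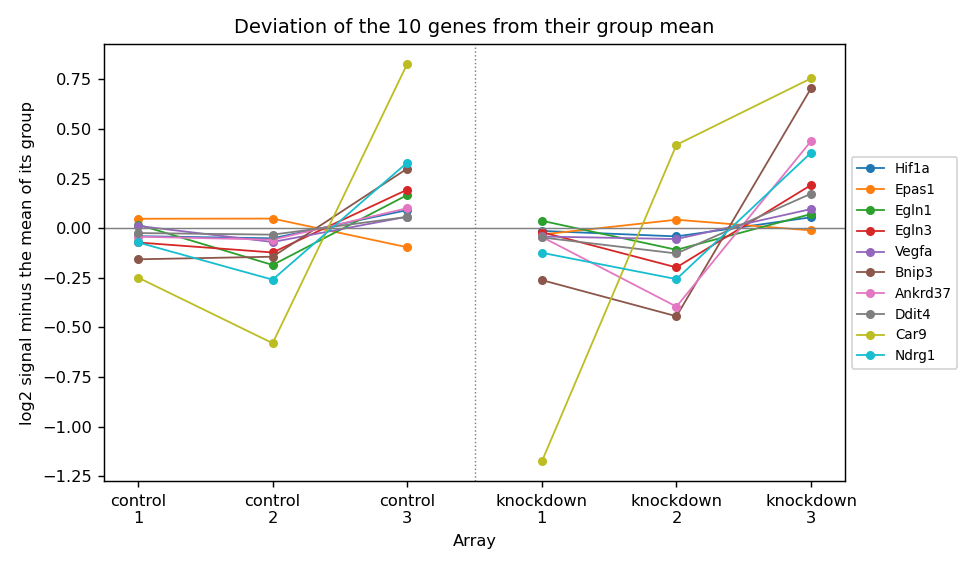
The vertical axis gives the normalized log2 signal of each of the 10 genes minus the mean of its group, for the 3 control arrays (left) and the 3 knockdown arrays (right); lines join the values of a gene and imply no order of the replicates. Control 3 and knockdown 3 are the highest of their groups for all but Epas1, and the largest deviations are those of Car9 and Bnip3.

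The wider HIF pathway was read through 3 lists of textbook members. In the list of oxygen sensing and HIF control, with 19 of 20 genes tested, Egln3 was the only gene called lower and 0 were called higher, and the median change was 0.07. Without the genes described above, 0 of 15 were called in either direction, while by the adjusted p alone 2 were lower (Rbx1 and Siah2, both ubiquitin ligase components) and 6 higher. Among those 6, chosen for mention after their values were seen, Arnt, the partner of the alpha subunits, was higher by 0.33 (adjusted p = 0.0162) and Vhl, which recognises hydroxylated HIF alpha, by 0.30 (adjusted p = 0.0351), both at a fold under 1.5. The median of this list turned to -0.048 when arrays were scaled on their median.

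The list of HIF targets outside glycolysis held 8 of the 10 genes, and 42 of its 46 members were tested. In it, 11 were called lower (26.2%) and 2 higher (4.76%), against 5.00% and 3.91% of all genes, with a median change of -0.23. Leaving out the genes already described, 7 of 34 were lower and 2 higher, with a median of -0.11. With no minimum fold, 12 of these 34 were lower and 7 higher, against 15.8% and 15.7% of all genes. P4ha1, a collagen prolyl hydroxylase, fell by 0.99 (SE 0.090, adjusted p = 0.00226), and Bhlhe40, a transcriptional repressor induced by hypoxia, fell by 0.71 (SE 0.063, adjusted p = 0.00207). The higher calls included Mxi1, an antagonist of MYC, whose probe failed to rise well above background in either group and for which no fold is given. Other targets were not called, some of them higher or lower by the adjusted p alone. Fam162a had a change of 0.08 (adjusted p = 0.503), Hmox1 of -0.10 (adjusted p = 0.232) and Plod1 of 0.04 (adjusted p = 0.648), examples chosen after their values were seen.

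The glycolytic list, a separate branch of the HIF response, had 20 of 20 genes tested and a median change of -0.28. In it, 4 were called lower (20%, against 5.00% of all genes) and 0 higher. For 17 genes the knockdown arrays were all below the control arrays, which held for 27.1% of all genes. Aldoc, the brain-type aldolase, fell by 2.59 (SE 0.295, adjusted p = 0.00429), Slc16a3, a lactate exporter, by 0.98 (SE 0.253, adjusted p = 0.0478), Eno2, neuronal enolase, by 0.76 (SE 0.063, adjusted p = 0.00175), and Slc2a3, the neuronal glucose transporter, by 0.59 (SE 0.072, adjusted p = 0.00523). All 20 changes were below 0, against 49.2% of all genes. By the adjusted p alone 12 were lower, against 15.8% of all genes. The within-group pattern was also seen here: control 3 and knockdown 3 were the highest of their groups for 8 of the 20 glycolytic genes (40%) and for 14 of the 34 other HIF targets outside the 10 (41.2%), but for 2 of the 15 remaining genes of oxygen sensing (13.3%).

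**Figure D4:**
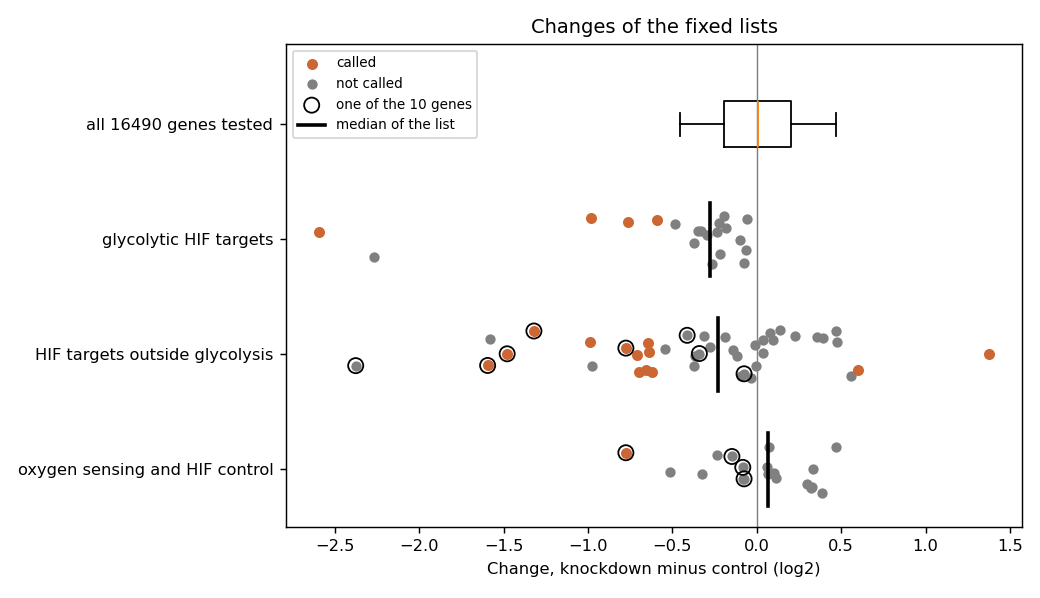
Each point is the log2 change, knockdown minus control, of 1 tested gene of the 3 lists (vertical scatter has no meaning); orange points were called, rings mark the 10 genes, thick lines are list medians, and the box at the top gives the quartiles, median and 10th to 90th percentiles of all 16490 genes tested. The medians are -0.28 for the glycolytic targets, -0.23 for the other targets and 0.07 for oxygen sensing, against 0.005 for all genes; the highest point, Mxi1, was not well above background in either group.

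The genes whose values were most like those of each called gene, by the root mean square difference over the 6 arrays after setting the control mean to 0, were searched among 13976 genes. For Ankrd37 they were Vip (0.15), Ndrg1 (0.17) and Reep1 (0.17), and for Ndrg1 they were Selenbp1 (0.11), Vip (0.12) and Ankrd37 (0.17), so that Ankrd37 and Ndrg1 each appeared beside the other. For Bnip3 they were Kbtbd11 (0.088), Ndufa4l2 (0.16) and Rab27a (0.17), and for Egln3 they were Rsbn1 (0.044), Poglut2 (0.080) and Gnat2 (0.086). These distances are in log2 units and depend in large part on the size of the change, since values were set against the control mean. They describe likeness over these arrays only.

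Markers of cell types other than neuroblastoma were examined beside these changes. The summed intensity of 5 glial markers was 578 to 583 on the control arrays and 331 to 348 on the knockdown arrays; 3 of the 5 were well above background on all 6 arrays while S100b was well above it on none. The sum of 4 endothelial markers, which include the VEGF receptor Kdr, was 10311 to 11491 in control cells and 8781 to 9470 in knockdown cells, with Cdh5 well above background on no array. Kdr had a normalized signal of 3.84 on average in control cells and 3.63 in knockdown cells (adjusted p = 0.0743), and 0 of the 4 endothelial markers were called. The fibroblast sums overlapped (173 to 208 and 189 to 223; 4 of 6 were well above background on all arrays, and Col3a1 and Lum on none), as did the macrophage sums (1703 to 2447 and 1557 to 1878; 4 of 5 had a probe and all of these were well above background). Within the fibroblast list, Pdgfra was called higher (1.29, limma adjusted p = 0.00113) and Col1a1 lower (-0.77, adjusted p = 0.0491). The part of any of these cell types in the results was not tested.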

How the data were processed

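Total RNA of 3 control and 3 knockdown N2a samples was hybridised to single-colour Cy3 arrays. The deposited scanner tables, written by Agilent Feature Extraction 10.10.1.1, give an intensity per spot that the authors' software had background-corrected. The deposited log2 values of the series matrix were used as an alternative only; over 43557 probes they equalled the log2 scanner intensity less a constant per array within 0.0136. Control spots and outlier-flagged spots were removed, log2 intensities were set against the 75th percentile of each array, and probes had to reach the 20th percentile on all 3 control or all 3 knockdown arrays, a filter that 42126 probes passed. Symbols came from RefSeq (GRCm38.p6) through unversioned accessions, with 25869 of 26392 probes bearing a curated mRNA accession matched; the gene was read by its brightest tested probe. Knockdown and control were compared with lmFit and eBayes (limma 3.58.1, R 4.3.3), two-sided, with Benjamini-Hochberg adjustment over all tested probes. The fit was tested on simulated data. Precision is limited by 3 arrays per group. Alternatives were other scalings, normexp with an offset of 50 on the median signal (in place of the planned mean signal), filters, variance models, blocks and leaving out each array. The text names every probe of the 10 genes, the NF-Y subunits, per list and direction the 6 called genes that changed most, and the 3 genes most like each called gene. The members and lists were chosen with earlier results of these data known. Columns of the authors' own comparisons were not used. Values of some single genes of the lists are not reported here.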

Additional observations from a re-analysis of the deposited data

How the results depend on the processing

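Of the 10 genes, 9 had a change below 0 under every alternative that gave a value, and Egln1 reversed to 0.0084 without control 3 (range without each array -0.17 to 0.0084). With the slide row as a block, calls were lost for Egln3 (-0.80), Bnip3 (-1.58), Ankrd37 (-1.64) and Ndrg1 (-1.60), Car9 passed at a fitted -3.55 that rests on 1 knockdown reading not well above background and is no measured size, and the calls lower numbered 1 of the 10, 0 for oxygen sensing, 4 for the HIF targets outside glycolysis and 2 for the glycolytic targets. The cause was not tested. Egln3 was also lost as the mean over its probes (-0.53), and it was -0.88 to -0.68 without each array in turn. Bnip3 was lost under quantile normalization (-1.27), spike-in scaling (-1.29), no filter on dim probes (-1.32) and array weights (-1.22), and was -1.67 to -1.10 without each array. Car9 was called under quantile normalization (-2.43), median scaling (-2.49), a filter on probes well above background, a variance trend and the mean over probes (-2.38 in each of these 3), was -0.30 at its smallest, after normexp with its offset of 50, and did not pass the filter at the 20th percentile on all 6 arrays. Without each array, 2 to 4 of the 10 were called lower (2 without control 1 or without knockdown 1), 0 to 1 for oxygen sensing (0 without these same arrays), 6 to 12 for the HIF targets outside glycolysis (7 without control 1 or control 3, 6 without knockdown 2) and 2 to 5 for the glycolytic targets (2 without control 3 or knockdown 2).

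Median scaling gave 2 calls lower for oxygen sensing and list medians of -0.048, -0.35 and -0.40 for oxygen sensing, HIF targets outside glycolysis and glycolytic targets. The glycolytic calls lower were 2 under quantile normalization, spike-in scaling and array weights. The HIF targets outside glycolysis called higher numbered 1 under quantile normalization, median scaling, both normexp settings, no filter, the 20th percentile on all 6 arrays, the filter on probes well above background, the variance trend and the replicate block, and 0 to 3 without each array. With no minimum fold, calls lower were 3, 17 and 12 and calls higher 6, 7 and 0 for the 3 lists in the same order, and 2602 lower and 2597 higher over all genes. All genes called were 549 lower and 292 higher under normexp with quantile normalization, 278 higher under normexp with the 75th percentile and 382 higher under median scaling. Correlations of same-numbered deviations were 0.018, 0.067 and 0.0025. Controls 1 and 2 were nearest to the knockdown array of the same number, and control 3 was nearest to knockdown 1 (0.063). These correlations are small and do not decide whether samples were paired by replicate number. They cannot exclude such pairing for the 10 genes, of which 9 were highest on both control 3 and knockdown 3. A replicate block left 4 of the 10 called lower, with 765 genes lower and 518 higher in all. Under that block the SE was 0.0475 for Ndrg1, 0.0515 for Egln3, 0.161 for Ankrd37 and 0.173 for Bnip3, each smaller than without it. Whether the samples were paired was not tested further. Dim signal limits Car9, for which only a bound on the group means could be given.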
